A study of Mus musculus with 8 samples.

Results

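Genes of late neutrophil granules were followed through 8 RNA-sequencing libraries of mouse bone marrow progenitors. The genes were Ltf, Ngp, Camp, Lcn2, Chi3l3, S100a8, S100a9, Mmp8, Mmp9 and Cd177, 10 of the 29955 gene names in the tables, and they were chosen by name after their genotype difference in these libraries was known. The libraries fall into 4 groups with 2 libraries each, namely WT LSK, Ripk3-KO LSK, WT LK and Ripk3-KO LK. LSK cells were sorted as Lin- Sca1+ Kit+ and hold the stem cells and multipotent progenitors, and LK cells were labelled Lin- Kit+ and hold mostly committed myeloid progenitors. All mice carried the strain label CD57BL6/J. The knockout mice lacked Ripk3, a kinase of the necroptosis pathway, in every cell and not in blood cells alone, and the labels give neither age nor sex. The labels state that the cells received no treatment, whereas the study describes LSK and LK cells taken after a weekly series of X-ray exposures, in WT and knockout mice alike. Nothing states that the 2 libraries of a group came from separate mice, so that the p-values measure only the spread between these libraries, which may be technical.

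Neutrophils fill their granules in order while they mature. Azurophil (primary) granules, with myeloperoxidase and elastase, are made at the promyelocyte stage, and secondary and tertiary granules, with lactoferrin, cathelicidin and gelatinase, are made afterwards in myelocytes, metamyelocytes and band cells. C/EBP-epsilon is a key factor for late granule genes, which are switched on at a time when Kit is no longer carried on the surface. The lineage antibodies of the sort included Gr-1 and CD11b, which are carried by maturing neutrophils. The values below are called signal, which is CPM (read counts set against the library total) after TMM scaling, not divided by transcript length. The scaling was done within each population, so that LK is compared with LSK only on the joint scale given further on. In bulk RNA, fewer cells of a type and less RNA per cell cannot be told apart.

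The sort and the knockout were checked first. Ripk3 signal was 162 and 168 in WT LSK against 3.38 and 1.08 in Ripk3-KO LSK, and 144 and 149.7 in WT LK against 16.2 and 10.6 in Ripk3-KO LK. Ly6a, which encodes Sca1, was 141 to 237 in the LSK libraries and at most 4.12 in the LK libraries. Kit, the antigen common to both gates, was between 223 and 464 in all 8 libraries. Recovered reads per library ran from 9782166 to 16280811, so that 3 reads corresponded to a signal of 0.186 to 0.311. Xist was 108 to 413 in the 4 WT libraries and at most 1.27 in the 4 Ripk3-KO libraries. Uty, Eif2s3y and Kdm5d from the Y chromosome were listed at 0 in every WT library and above 0 in every Ripk3-KO library, and Ddx3y was listed at 0 in all 8. Genotype and sex cannot be told apart in any comparison of Ripk3-KO with WT below.

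The 10 genes lie on chromosomes 2, 3, 7 and 9. Camp, Ngp and Ltf lie near each other on chromosome 9, where GENCODE M21 on GRCm38 puts Camp at chr9:109847379-109849617 on the minus strand, Ngp at chr9:110419747-110423012 on the plus strand and Ltf at chr9:111019271-111042767 on the plus strand. This stretch of 1.20 Mb holds 54 annotated genes. S100a8 (chr3:90668978-90670035, plus strand) and S100a9 (chr3:90692632-90695721, minus strand) lie 22.6 kb apart. The promoters of these 5 genes are shown because the genes carried most of the signal of the group. Each runs 5′ to 3′ on the gene's strand from 250 bases before to 50 bases after the RefSeq start on GRCm38.p6. Capitals mark TTGCNNAA, a C/EBP-type motif, and GAGGAA, a PU.1-type motif, searched on both strands. The windows are chr9:111019042-111019341 for Ltf, chr9:110419558-110419857 for Ngp and chr9:109849407-109849706 for Camp, and chr3:90668821-90669120 for S100a8 and chr3:90695672-90695971 for S100a9.
Ltf: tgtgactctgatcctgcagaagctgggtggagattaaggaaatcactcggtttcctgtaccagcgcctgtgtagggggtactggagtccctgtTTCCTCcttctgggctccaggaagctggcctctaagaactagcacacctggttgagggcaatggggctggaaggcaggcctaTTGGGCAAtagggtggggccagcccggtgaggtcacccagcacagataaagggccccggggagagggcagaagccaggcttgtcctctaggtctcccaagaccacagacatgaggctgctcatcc
Ngp: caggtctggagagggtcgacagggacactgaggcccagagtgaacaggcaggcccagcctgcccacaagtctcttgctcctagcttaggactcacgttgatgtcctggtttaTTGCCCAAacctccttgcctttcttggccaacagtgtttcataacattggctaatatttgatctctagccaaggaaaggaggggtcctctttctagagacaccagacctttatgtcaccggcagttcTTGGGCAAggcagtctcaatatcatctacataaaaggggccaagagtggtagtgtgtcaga
Camp: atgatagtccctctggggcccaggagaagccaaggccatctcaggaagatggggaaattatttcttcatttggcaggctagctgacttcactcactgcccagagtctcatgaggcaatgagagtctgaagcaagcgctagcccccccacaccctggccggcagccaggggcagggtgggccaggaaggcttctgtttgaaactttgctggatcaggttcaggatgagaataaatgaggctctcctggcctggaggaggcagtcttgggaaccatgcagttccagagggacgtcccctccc
S100a8: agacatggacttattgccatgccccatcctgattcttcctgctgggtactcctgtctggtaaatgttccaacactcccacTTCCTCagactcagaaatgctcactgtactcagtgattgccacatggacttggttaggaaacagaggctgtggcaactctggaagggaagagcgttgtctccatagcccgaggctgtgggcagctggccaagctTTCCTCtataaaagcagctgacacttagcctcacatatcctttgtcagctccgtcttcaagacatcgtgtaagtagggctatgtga
S100a9: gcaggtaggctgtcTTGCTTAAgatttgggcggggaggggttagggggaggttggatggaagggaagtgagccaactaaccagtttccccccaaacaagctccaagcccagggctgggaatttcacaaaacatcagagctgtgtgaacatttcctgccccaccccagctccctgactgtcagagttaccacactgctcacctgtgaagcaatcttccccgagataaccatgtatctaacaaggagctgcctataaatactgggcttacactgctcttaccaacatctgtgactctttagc

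Ltf held 1 C/EBP-type and 1 PU.1-type match, Ngp held 2 C/EBP-type matches, S100a8 held 2 PU.1-type matches and S100a9 held 1 C/EBP-type match. In Camp neither motif was present in this window. RefSeq promoters were matched for 9 of the 10 genes, and Mmp9 had none in the table. The C/EBP-type motif was present in 5 of the 9 promoters and in 10.8% of all 32851 promoters. The PU.1-type motif was also in 5 of the 9, against 28.3% of all, and TATAAA was in 5 of the 9, against 13.6% of all. No match overlapped another, and a match describes letters, not a bound site.

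The iron-binding and antimicrobial cargo of the secondary granules was higher in Ripk3-KO cells of both populations. Ltf encodes lactoferrin, which withholds iron from bacteria. Its signal was 34.8 and 25.8 in WT LSK and 213 and 203 in Ripk3-KO LSK. In LK cells Ltf was 35.3 and 36.9 in WT and 218 and 228 in Ripk3-KO. Within each population both Ripk3-KO libraries lay above both WT libraries. The log2 fold change, on the log2(signal + 1) scale, was 2.76 ± 0.23 (SE) in LSK and 2.60 ± 0.23 in LK, which ranked 23 of 16817 genes in LSK and 3 of 13949 genes in LK.

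Ngp, a neutrophil granule protein related to the cathelicidins and cystatins, was 169 and 165 in WT LSK and 679 and 685 in Ripk3-KO LSK. The corresponding LK values of Ngp were 102 and 85.8 in WT and 394 and 427 in Ripk3-KO. The replicates of each group lay close together, and no WT library reached a knockout library of its population. The log2 fold change was 2.02 ± 0.17 in LSK and 2.12 ± 0.17 in LK. Camp encodes the cathelicidin peptide precursor, which is cut into an antimicrobial peptide after release. Camp signal was 65.0 and 56.0 in WT LSK, 216 and 271 in Ripk3-KO LSK, 44.2 and 43.0 in WT LK and 145 and 151 in Ripk3-KO LK. Its log2 fold change was 1.98 ± 0.22 in LSK and 1.74 ± 0.22 in LK. Between Camp, Ngp and Ltf on chromosome 9, 22 other genes were tested in LSK and 17 in LK, and limma called 0 of them in either population (median log2 fold changes of -0.24 and 0.07). Unadjusted, 5 were under 0.05 in LSK and 1 in LK, and edgeR and DESeq2 called 0.

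Lcn2 encodes neutrophil gelatinase-associated lipocalin, which binds bacterial siderophores. It was 26.6 and 37.3 in WT LSK and 111 and 124 in Ripk3-KO LSK. In WT LK Lcn2 was 26.8 and 34.8, and in Ripk3-KO LK it was 71.6 and 74.0. The genotypes were apart in both populations, with a log2 fold change of 1.86 ± 0.27 in LSK and 1.23 ± 0.27 in LK. Chi3l3, whose current symbol is Chil3 and which encodes the chitinase-like lectin Ym1, was 63.6 and 74.8 in WT LSK and 131 and 159.7 in Ripk3-KO LSK. Chi3l3 in LK was 56.7 and 66.8 in WT and 124 and 135 in Ripk3-KO. The log2 fold change was 1.06 ± 0.22 in each population. A copy, Chil4, shares 94.3% identity over 1540 bases of transcript, and its row (listed as Chi3l4) never exceeded 1.45. How reads shared by such copies were counted is not stated, so that Chi3l3 is uncertain to that extent.

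**Figure D1:**
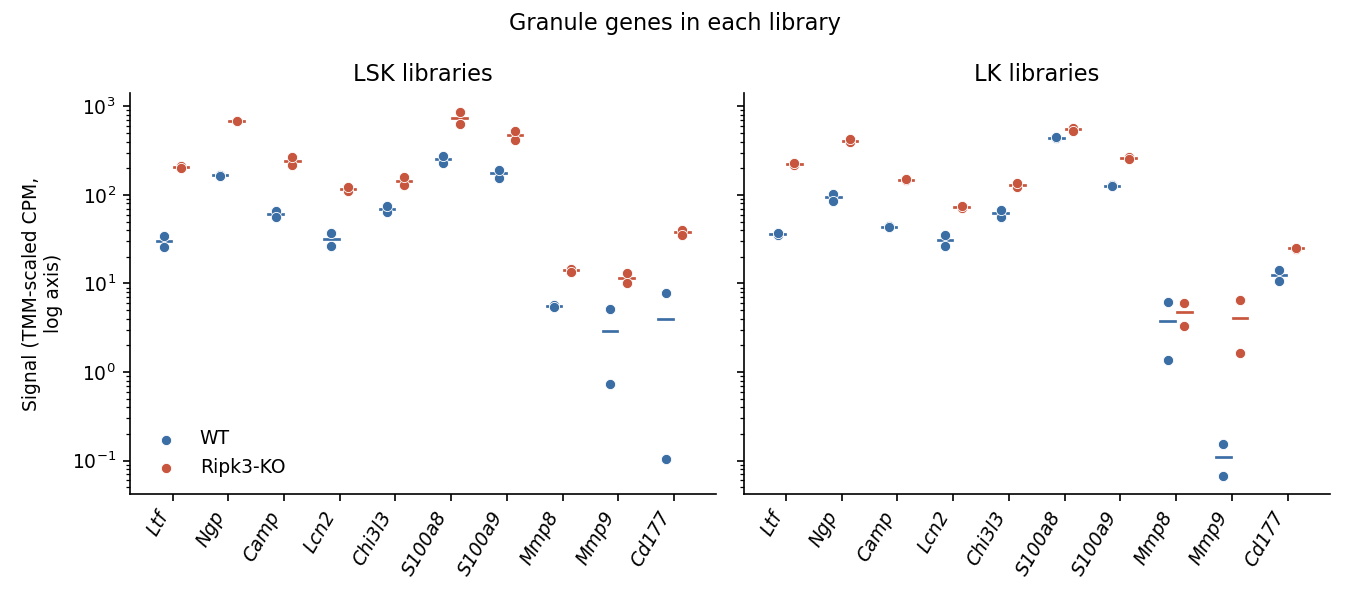
Signal (TMM-scaled CPM, log axis) of the 10 genes in the 4 LSK and the 4 LK libraries, with 1 point per library and a line at each mean of 2. Ltf lies at 25.8 and 34.8 in WT LSK against 203 and 213 in Ripk3-KO LSK. In LK it lies at 35.3 and 36.9 in WT against 218 and 228 in Ripk3-KO. Mmp8 is the only gene whose genotypes overlap, in LK.

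S100a8 and S100a9 are calcium- and zinc-binding proteins that pair as calprotectin, and they are stored in the cytosol of neutrophils rather than inside the granules. S100a8 was 231 and 273 in WT LSK and 624 and 869 in Ripk3-KO LSK. In LK cells S100a8 was 433 and 446 in WT and 566 and 528 in Ripk3-KO. The knockout libraries were above the WT libraries in both populations, by a smaller margin in LK. The log2 fold change was 1.55 ± 0.17 in LSK and 0.32 ± 0.17 in LK (95% interval -0.04 to 0.67). S100a9 was 156 and 193 in WT LSK and 419.8 and 532 in Ripk3-KO LSK. The S100a9 values in LK were 130.4 and 124 in WT and 271 and 256 in Ripk3-KO. Its log2 fold change was 1.44 ± 0.19 in LSK and 1.04 ± 0.18 in LK.

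The ratio of S100a8 to S100a9 signal within a library does not depend on how libraries are scaled. It was 1.48 and 1.42 in WT LSK and 1.49 and 1.64 in Ripk3-KO LSK. In LK it was 3.32 and 3.58 in WT and 2.09 and 2.07 in Ripk3-KO. All 4 LK libraries thus had a higher ratio than all 4 LSK libraries, and the WT LK libraries had the highest. The ratio was not tested. Between any 2 of the groups, with 2 libraries against 2, an exact permutation test cannot go below a two-sided p of 0.333.

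**Figure D2:**
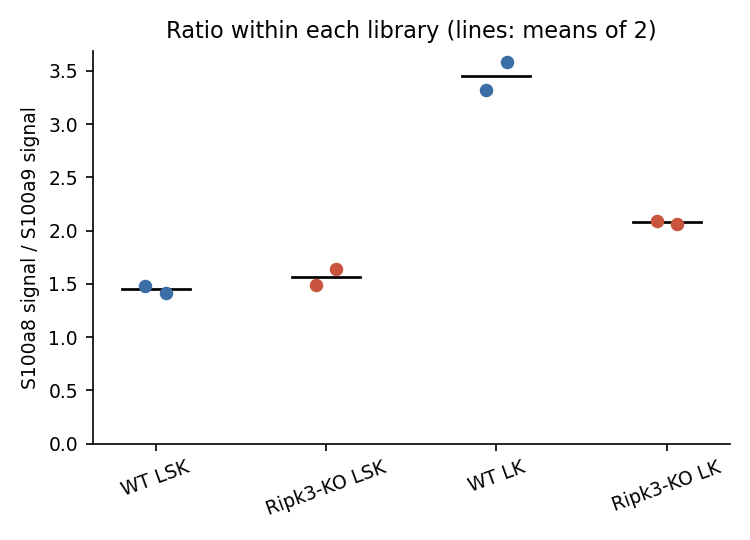
Ratio of S100a8 signal to S100a9 signal (linear axis from 0) in each library by group, with a line at the mean of 2 libraries. The ratio is 1.42 to 1.64 in the LSK libraries, 2.07 and 2.09 in Ripk3-KO LK and 3.32 and 3.58 in WT LK.

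The matrix proteases and the surface glycoprotein of the granule membrane were the least abundant genes of the group. Mmp8, the neutrophil collagenase of secondary granules, was 5.66 and 5.49 in WT LSK and 14.7 and 13.6 in Ripk3-KO LSK. In LK Mmp8 was 6.18 and 1.37 in WT and 6.09 and 3.35 in Ripk3-KO. The genotypes were apart in LSK and overlapped in LK, with log2 fold changes of 1.20 ± 0.61 and 0.43 ± 0.60. Without WT LK replicate 2 the LK value of Mmp8 turned to -0.37.

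Mmp9 encodes gelatinase B, which defines the tertiary granules. Its signal was 5.16 and 0.725 in WT LSK and 10.05 and 13.2 in Ripk3-KO LSK. In LK it was 0.0679 and 0.153 in WT and 1.65 and 6.46 in Ripk3-KO. The WT LK values rest on 1 and 2 reads, against 26 and 104 reads in Ripk3-KO LK. After scaling for depth the reads gave a ratio of 40.4 (exact 95% interval 13.5 to 198, counting error only). The knockout libraries were above the WT libraries in both populations, and the 2 libraries of a group differed by up to 7.12-fold. Log2 fold changes of Mmp9 were 1.94 ± 0.70 in LSK and 2.002 ± 0.71 in LK.

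Cd177 encodes a glycoprotein that sits in the membrane of secondary granules and on the neutrophil surface. It was 7.85 and 0.104 in WT LSK and 39.9 and 35.6 in Ripk3-KO LSK. The WT LSK values correspond to 79 reads and 1 read, so that the WT level of Cd177 is uncertain. In LK Cd177 was 10.5 and 14.1 in WT and 24.3 and 25.5 in Ripk3-KO. The log2 fold change was 3.63 ± 0.64 in LSK and 0.97 ± 0.63 in LK, and the LSK value was 2.13 without WT LSK replicate 2 and 5.13 without replicate 1. The limma call of Cd177 in LSK was lost with edgeR, with DESeq2, without the filter on low values and without either Ripk3-KO LSK library. Near copies of Cd177 (BC049730 and Gm4763, at 95.6% and 96.0% identity over 275 and 303 bases) had signals of at most 1.08 and 7.25.

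Across the group, both Ripk3-KO libraries were above both WT libraries for 10 of 10 genes in LSK, beside 21.4% of all genes tested, and for 9 of 10 in LK, beside 20.1%. By limma with Benjamini-Hochberg adjustment over all genes and a threshold of 0.05, 8 of the 10 were called higher in Ripk3-KO LSK, where 0.892% of the 16817 genes tested were called higher. The 2 genes not called were Mmp8 and Mmp9. EdgeR and DESeq2 each called 7 in LSK, the same genes without Cd177, and the limma call of Chi3l3 was lost without Ripk3-KO LSK replicate 2 or without either WT LSK library. In LK 6 of the 10 were called higher (Ltf, Ngp, Camp, Lcn2, Chi3l3 and S100a9), where 0.10% of 13949 genes were. Since the genes were chosen on these same genotype differences, the counts describe the choice and nothing is read from them. The median log2 fold change of the 10 was 1.90 in LSK and 1.14 in LK, and that of all genes tested was -0.01 and 0.01. The number of the 10 called in LK was 3 without WT LK replicate 1, without Ripk3-KO LK replicate 1 or without Ripk3-KO LK replicate 2.

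**Figure D3:**
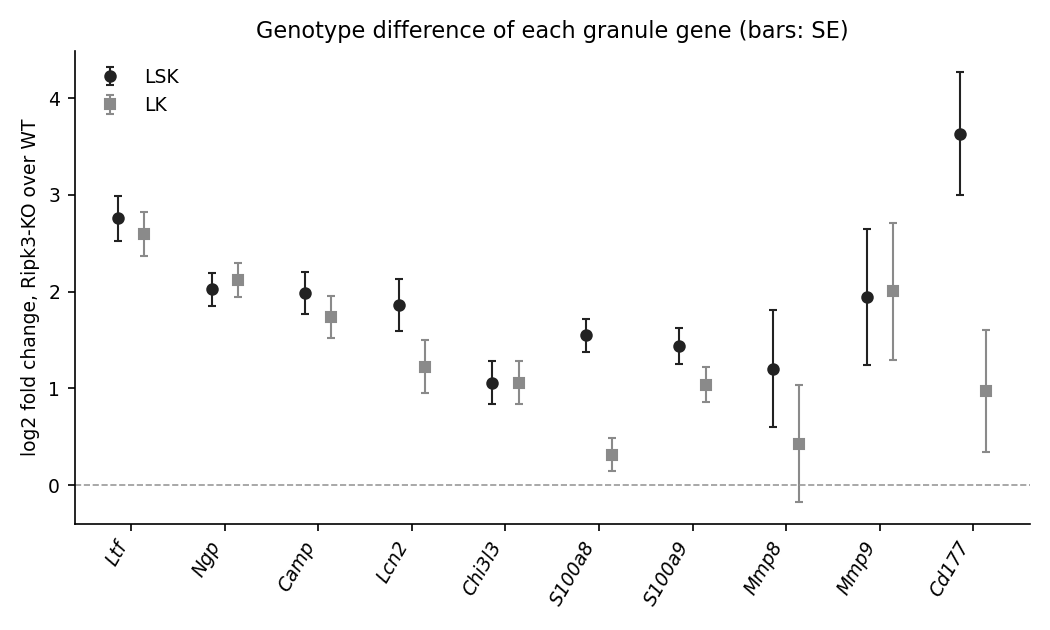
Log2 fold change of Ripk3-KO over WT for each of the 10 genes in LSK (circles) and LK (squares), with bars for the SE from limma. Values run from 1.06 to 3.63 in LSK and from 0.32 to 2.60 in LK, and S100a8 and Cd177 have the widest gap between the populations.

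Together the 10 genes took 0.0802% ± 0.00200 (SD, n = 2) of the reads in WT LSK and 0.267% ± 0.0359 in Ripk3-KO LSK. Their share was 0.0823% ± 0.00415 in WT LK and 0.189% ± 0.0107 in Ripk3-KO LK. The genes did not keep their proportions. S100a8 made up 31.6% ± 1.88 of their summed signal in WT LSK and 51.7% ± 0.701 in WT LK, against 27.7% ± 3.18 in Ripk3-KO LSK and 29.9% ± 1.59 in Ripk3-KO LK. Ltf made up 3.82% ± 1.02 in WT LSK and 4.25% ± 0.107 in WT LK, and 7.83% ± 1.18 in Ripk3-KO LSK and 12.2% ± 0.323 in Ripk3-KO LK. The ratio of Ngp to Ltf signal was 4.87 and 6.38 in WT LSK, 3.19 and 3.37 in Ripk3-KO LSK, 2.89 and 2.33 in WT LK and 1.81 and 1.87 in Ripk3-KO LK.

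Levels of different genes were compared as signal per kb of the longest coding transcript. S100a8 was first in every group (519 per kb in WT LSK, 1537 in Ripk3-KO LSK, 904 in WT LK and 1126 in Ripk3-KO LK). S100a9, Ngp and Camp followed in this order in all 4 groups, and their replicates did not overlap with those of the next gene. Lcn2, Chi3l3 and Ltf took the next ranks. In Ripk3-KO LK these 3 were at 79.5, 84.1 and 81.3 per kb, and neighbours among them overlapped, as did Chi3l3 and Lcn2 in WT LK. Mmp8, Mmp9 and Cd177 took the last ranks in every group, at 13.9 per kb or less. In WT LSK both Mmp8 libraries lay above both Mmp9 libraries. Cd177 could not be placed there, because its replicates (2.89 and 0.0382 per kb) overlapped with those of both genes. Mmp8 and Mmp9 overlapped in Ripk3-KO LK.

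The difference of the genotype effects, LSK minus LK, was tested with an interaction contrast in limma, which called 0.358% of 15901 genes. Of the 10 genes S100a8 passed, with a difference of 1.23 ± 0.24 (95% interval 0.73 to 1.74, adjusted p = 0.0216). This call was not stable. Over the other settings its adjusted p ran from 0.000415 to 0.325, and it was lost when any library other than Ripk3-KO LSK replicate 1 was left out. The difference of Cd177 was 2.66 ± 0.89 (95% interval 0.81 to 4.51) with an adjusted p of 0.288. For the other 8 genes the differences ran from -0.10 for Ngp to 0.78 for Mmp8, and none was called. The intervals were wide, for example -0.51 to 0.83 for Ltf and -0.16 to 1.43 for Lcn2, so that a difference of that size could not be detected here. The interaction is built from the 2 contrasts on which the genes were chosen.

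The 2 populations of one genotype were compared after all 8 libraries were put on a joint TMM scale (CPM from recovered reads). Of 9 azurophil granule genes limma called 7 higher in WT LK than in WT LSK, beside 2354 of 15757 genes. In the knockout comparison it called 8 of them higher, beside 1845. Of 15 further late granule and granule membrane genes it called 8 higher and 1 lower in WT. In the knockout it called 6 of these higher and 0 lower, beside 19.3% of all genes in either direction. Of the 10 late granule genes 2 were called in WT cells, beside 23.9% of 15757 genes in either direction. That is near the share of all genes, and nothing is read from it. The libraries of both population comparisons also entered the genotype differences on which the genes were chosen. S100a8 rose from 221 ± 26.0 CPM in LSK to 498 ± 6.29 in LK (SD, n = 2 each), with a log2 fold change of 1.17 ± 0.17 and a limma adjusted p of 4.21e-05. This call held in all 8 fits that left out a library and under all 8 other settings. Cd177 rose from 3.49 ± 4.80 to 14.0 ± 2.78 CPM, with a log2 fold change of 2.34 ± 0.61 and an adjusted p of 0.00778 (7.94e-05 to 0.354 over the other settings). Without WT LSK replicate 2, the library with 1 read of Cd177, its log2 fold change was 0.93 and not called. Ltf had 26.6 ± 5.56 and 40.9 ± 0.990 CPM (0.62 ± 0.23, adjusted p = 0.0554) and Ngp had 147 ± 2.99 and 107 ± 13.8 CPM (-0.46 ± 0.18, adjusted p = 0.0602).

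In Ripk3-KO cells limma called 0 of the 10 genes between LK and LSK, beside 19.3% of 15757 genes, and 1 of the 10 had an unadjusted p under 0.05. That gene was S100a9, with 419 ± 65.9 CPM in LSK and 300.4 ± 10.4 in LK (-0.47 ± 0.19, adjusted p = 0.0878). With edgeR 0 of the 10 were called, with DESeq2 1, with median centring 1 and with quantile normalization 4. S100a8 stood at 657 ± 146 CPM in Ripk3-KO LSK and 624 ± 26.9 in Ripk3-KO LK, with an interval of the log2 difference from -0.42 to 0.31.

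**Figure D4:**
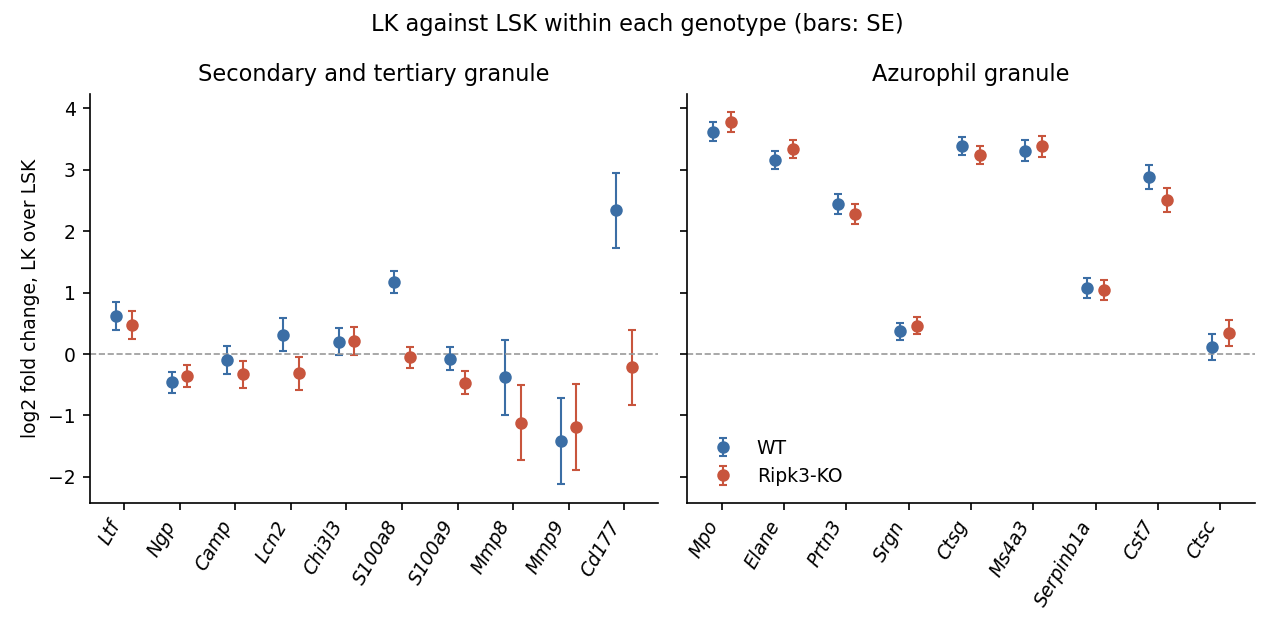
Log2 fold change of LK over LSK in WT and in Ripk3-KO cells, on a joint TMM scale, for the 10 late granule genes (left) and 9 azurophil granule genes (right), with bars for the SE from limma. The azurophil median is 2.88 in WT and 2.51 in Ripk3-KO, and the late granule medians are 0.06 and -0.32.

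The azurophil genes are given as a description, since the late granule genes beside them were chosen on the genotype difference. Of 10 listed azurophil genes 9 were in the tables, and all 9 were tested. By limma 0 of the 9 were called in either genotype comparison. Unadjusted, 3 were under 0.05 in LSK and 2 in LK, edgeR called 0 in both, and DESeq2 called 1 in LSK (Elane, lower) and 0 in LK. Their median log2 fold change was -0.14 in LSK and -0.08 in LK. Mpo, which encodes myeloperoxidase, was 5019.5 and 5642 in WT LSK and 4719 and 3529 in Ripk3-KO LSK. In LK Mpo was 54602 and 46901 in WT and 37309 and 49843 in Ripk3-KO. Elane, neutrophil elastase, was 1504 and 1750.1 in WT LSK, 1239.9 and 1059 in Ripk3-KO LSK, 11533 and 10939 in WT LK and 8034 and 9926 in Ripk3-KO LK. Both were at or below the WT level in the knockout libraries, except that 1 Ripk3-KO LK library of Mpo lay between the WT libraries. Between populations, all 9 genes had a log2 fold change of LK over LSK above 0 in both genotypes. Limma called 7 of the 9 higher in WT LK, beside 2354 of 15757 genes. In Ripk3-KO LK it called 8 of the 9 higher, beside 1845. Mpo rose by 3.62 ± 0.16 in WT and 3.78 ± 0.16 in Ripk3-KO on the log2 scale.

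Other genes of the late granules and their membranes gave no calls between genotypes. Of 18 listed genes 14 were tested in LSK and 15 in LK, and limma, edgeR and DESeq2 each called 0 in either. At an unadjusted p under 0.05 limma gave 5 in LSK and 1 in LK. Their median log2 fold change was 0.24 in LSK and 0.14 in LK. Both Ripk3-KO libraries were above both WT libraries for 7 of 14 in LSK, beside 21.4% of all genes tested, and below for 1 of 14, beside 23.2%. In LK they were above for 8 of 15, beside 20.1%, and below for 3 of 15, beside 19.9%. Lyz2, lysozyme, was 842 and 787 in WT LSK and 965 and 942 in Ripk3-KO LSK. Hp, haptoglobin, was 33.8 and 89.2 in WT LSK, 107 and 84.8 in Ripk3-KO LSK, 662 and 615 in WT LK and 439 and 553 in Ripk3-KO LK. Its genotypes overlapped in LSK, and it rose in WT LK over WT LSK (3.88 ± 0.28 on the joint scale, adjusted p = 1.2e-09).

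Genes of late neutrophils outside the granules were scarce, apart from a few that progenitors also use. Of 17 listed genes 16 were in the tables, and Ly6g was not among their names. The stefins Stfa1, Stfa2l1 and BC100530 were listed at 0 in every library, and 6 of the 16 genes stayed below a signal of 1 throughout. Cxcr2, the chemokine receptor of mature neutrophils, was between 0.482 and 13.3, with overlapping genotypes in both populations. Of the 10 tested, limma called 1 higher in LSK, beside 0.892% of all genes tested. There 6 were under 0.05 unadjusted, edgeR called 1 and DESeq2 called 2. In LK limma called 0, where 1 was under 0.05 unadjusted and edgeR and DESeq2 each called 1. The other gene called by DESeq2 in LSK was Trem1, a receptor of myeloid cells, with 4.57 and 1.86 in WT and 6.59 and 21.9 in Ripk3-KO, named after its values were seen. The gene called by limma was Retnlg, resistin-like gamma, with 15.8 and 14.5 in WT LSK and 61.7 and 68.6 in Ripk3-KO LSK (2.03 ± 0.43, adjusted p = 0.0120, with a range of 9.44e-06 to 0.126 over the other settings, and lost when any LSK library was left out). In LK Retnlg was 2.58 and 2.14 in WT and 10.8 and 12.0 in Ripk3-KO (1.89 ± 0.43, adjusted p = 0.0511 by limma), and it was the gene called there by edgeR and DESeq2. The summed signal of the 16 genes was 874 to 944 in WT LSK and 1083 to 1132 in Ripk3-KO LSK, and 974 to 1086 against 1083 to 1108 in LK. In LSK both Ripk3-KO libraries were above both WT libraries for 5 of the 10 tested and below for 3, beside 21.4% and 23.2% of all genes. In LK they were above for 4 of 10 and below for 0, beside 20.1% and 19.9%.

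**Figure D5:**
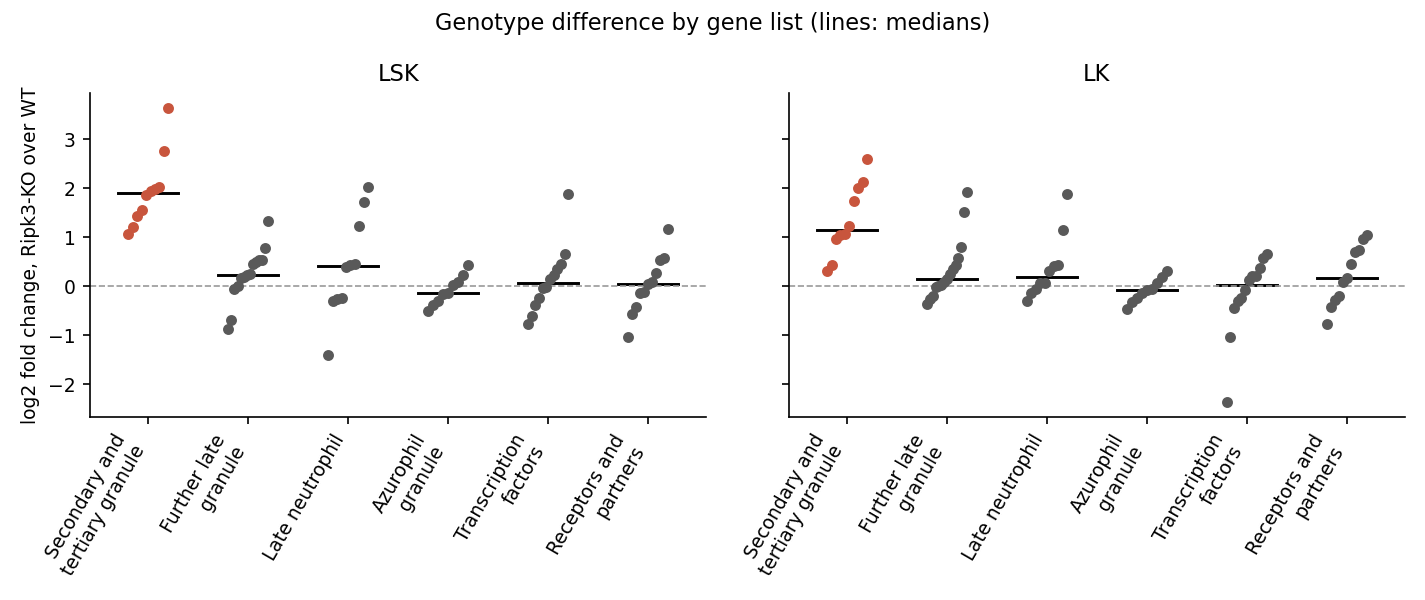
Log2 fold change of Ripk3-KO over WT in LSK (left) and LK (right) for every tested gene of 6 lists, with a line at each median. The 10 late granule genes, chosen on this difference, have medians of 1.90 and 1.14, and the azurophil genes have medians of -0.14 and -0.08.

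Among 12 transcription factors of the granulocyte lineage, limma called 1 higher in LSK (3 unadjusted, 0 by edgeR and 1 by DESeq2), beside 0.892% of all genes tested. In LK it called 0 (3 unadjusted, 0 by edgeR and 0 by DESeq2). Both Ripk3-KO libraries were above both WT libraries for 3 of 12 in LSK and 4 of 12 in LK, and below for 1 and 3. Gfi1, a repressor needed for neutrophil maturation, rose from 5.36 and 10.4 in WT LSK to 34.4 and 26.9 in Ripk3-KO LSK (1.89 ± 0.43, adjusted p = 0.0238, 0.00403 to 0.17 over the other settings, and lost when any LSK library was left out). In LK Gfi1 was 70.5 and 35.9 in WT and 16.3 and 35.5 in Ripk3-KO. Its direction in LK was the opposite of that in LSK, and the LK libraries of the 2 genotypes were adjacent without overlap. Cebpe, the gene of C/EBP-epsilon, was 5.96 and 10.05 in WT LSK and 4.50 and 9.09 in Ripk3-KO LSK (-0.23 ± 0.43). In LK Cebpe was 28.6 and 31.1 in WT and 39.9 and 38.4 in Ripk3-KO (0.38 ± 0.44), and limma called it in neither population. Receptors, partners and inhibitors of the granule proteins gave 0 calls among 11 tested in either population by limma, edgeR or DESeq2, and 0 at an unadjusted p under 0.05. Bsg and Emb, cell surface receptors of calprotectin, were between 307 and 609.5 in all 8 libraries, with overlapping genotypes in LSK. In LK both were lower in both Ripk3-KO libraries. Emb was 609.5 and 515 in WT LK and 479 and 493 in Ripk3-KO LK, and Bsg was 555 and 493 against 404 and 453. Of the 11 genes in LK, both Ripk3-KO libraries were above both WT libraries for 5 and below for 3. The shares of all genes tested there were 20.1% and 19.9%.

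Markers of other cells were read in the same libraries, for their whole lists. Their part in the granule gene values was not tested. Limma called 0 of 9 B cell markers in LSK and 0 of 5 in LK (1 and 0 unadjusted, 0 by edgeR and DESeq2), and the summed B cell signal was 93.9 to 119.9 in WT LSK, 79.8 to 106 in Ripk3-KO LSK, 70.0 to 70.6 in WT LK and 58.3 to 67.0 in Ripk3-KO LK. T and NK cell markers gave 0 calls by limma, edgeR and DESeq2, 0 also unadjusted, and sums of 692 to 858 in WT LSK and 852 to 864 in Ripk3-KO LSK, most of it Nkg7, a granule gene that progenitors carry too (580.4 to 747 in LSK and 1412 to 1672 in LK). Erythroid markers gave 0 calls by limma (4 unadjusted in LSK and 1 in LK, 0 by edgeR, and by DESeq2 1 in LSK, Alas2, named after its values were seen), with sums of 186 to 201.2 in WT LSK, 205 to 206 in Ripk3-KO LSK, 1259 to 1497 in WT LK and 980.3 to 1022 in Ripk3-KO LK. In LSK both Ripk3-KO libraries were below both WT libraries for 2 of 9 B cell, 3 of 9 T and NK cell and 4 of 8 erythroid markers. They were above for 0, 0 and 3. The shares of all genes tested were 23.2% below and 21.4% above. In LK they were below for 2 of 5, 3 of 6 and 6 of 9, beside 19.9%, and above for 1, 0 and 0, beside 20.1%. None of the markers on these lists was at 0 in all 8 libraries.

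Of 16 monocyte, macrophage and dendritic cell markers limma called 0 in LSK (1 unadjusted, 0 by edgeR and DESeq2) and 1 in LK. The called marker was Cd74, the invariant chain, at 25.3 and 23.1 in WT LK and 48.2 and 64.1 in Ripk3-KO LK (1.17 ± 0.21, adjusted p = 0.00565, 6.2e-07 to 0.148 over the other settings, and lost without WT LK replicate 1 or Ripk3-KO LK replicate 2). The sum of this list was 956 to 1001 in WT LSK against 928 to 958 in Ripk3-KO LSK, and 2558 to 2746 against 2579 to 2774 in LK. Both Ripk3-KO libraries were above both WT libraries for 2 of 16 in LSK and below for 3. In LK they were above for 6 of 16 and below for 4, beside 20.1% and 19.9% of all genes tested. Of 8 eosinophil, basophil and mast cell markers tested in LSK, limma called 1 (3 unadjusted, 1 by edgeR and 2 by DESeq2). It was the mast cell chymase Cma1, which fell (10.4 and 10.9 in WT, 0.0804 and 0 in Ripk3-KO, limma adjusted p = 0.00255, 0.000219 to 0.047 over the other settings). DESeq2 also called Epx, eosinophil peroxidase, at 1.69 and 0.518 in WT LSK and 5.39 and 4.30 in Ripk3-KO LSK. Both genes are named after their values were seen. Both Ripk3-KO LSK libraries were above both WT LSK libraries for 4 of the 8 and below for 1, beside 21.4% and 23.2% of all genes tested. In LK limma, edgeR and DESeq2 called 0 of 8, and 2 were under 0.05 unadjusted. There both Ripk3-KO libraries were above both WT libraries for 5 of 8 and below for 1, beside 20.1% and 19.9%. The sum of this list was 525 to 527 in WT LSK and 552 to 574 in Ripk3-KO LSK, and 559 to 617 against 655 to 757 in LK. Megakaryocyte markers gave 0 calls by limma, edgeR and DESeq2 (2 unadjusted in LSK and 0 in LK) and sums of 543 to 576 against 512 to 543 in LSK and 290.0 to 301 against 249 to 292 in LK. Both Ripk3-KO libraries were below both WT libraries for 4 of the 8 in LSK and 3 of the 8 in LK. They were above for 0 in either population. A list of 9 sort and progenitor markers held Ly6a and Kit of the gate beside others such as Cd34 and Flt3. Its summed signal in LSK was 2354 to 2372 in WT and 3316 to 3617 in Ripk3-KO. There both Ripk3-KO libraries were above both WT libraries for 6 of 9 and below for 0, beside 21.4% and 23.2% of all genes tested. Ly6a overlapped between genotypes in LSK (141 and 192 in WT, 187 and 237 in Ripk3-KO). Limma called 1 of the 9 in LSK (5 unadjusted, 1 by edgeR and 3 by DESeq2, which added Hlf and Kit). The gene called by limma was the cytokine receptor gene Flt3 (555 and 473 in WT, 874 and 886 in Ripk3-KO, 0.78 ± 0.19, adjusted p = 0.0298, 0.00204 to 0.165 over the other settings, and lost when any LSK library was left out). In LK that sum was 958 to 1027 in WT and 1075 to 1133 in Ripk3-KO, and limma, edgeR and DESeq2 called 0 of the 9, with 2 under 0.05 unadjusted. There both Ripk3-KO libraries were above both WT libraries for 4 of 9 and below for 1.

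The genes most like the group were sought among 10788 genes, by the mean absolute difference between a gene's log2 values over the 8 libraries, centred within LSK and within LK, and the mean profile of the 10. The 5 nearest were Retnlg (0.18), AK088368 (0.22), AK088966 (0.23), Cdk5rap1 (0.25) and Zfp599 (0.26). Of the 10 themselves, Camp lay nearest to their mean profile (0.15) and Cd177 farthest (0.64). Cdk5rap1 was 25.8 and 17.5 in WT LSK, 82.7 and 78.8 in Ripk3-KO LSK, 23.2 and 8.62 in WT LK and 55.1 and 47.1 in Ripk3-KO LK. These genes were selected for their pattern, and their values are a description.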

How the data were processed

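RNA-sequencing libraries of sorted LSK and LK cells were made with a stranded mRNA kit, and the submitters' processing notes name TopHat and mm9. The counter and annotation are not given in the sources used here. The heading of the deposited signal is FPKM, yet 100% of the nonzero entries of each library divide by a step common to all genes, to within 0.01 of a whole number. The authors' signal is thus CPM with a TMM factor, computed apart for LSK and for LK and not divided by length, and whole reads were recovered from it.

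The planned test for FPKM was kept on the deposited signal. Log2(signal + 1) was fitted with limma 3.58.1 (lmFit, eBayes with a trend) with 4 group means over 8 libraries, for genes with a mean of at least 1 in the libraries of a contrast. Tests were two-sided, with Benjamini-Hochberg adjustment over all genes tested and a threshold of 0.05. LK was compared with LSK on log2(CPM + 1) after TMM over all 8 libraries. EdgeR 4.0.16 (quasi-likelihood) and DESeq2 1.42.0 on the recovered reads were alternatives, beside quantile normalization, median centring, a pseudocount of 0.1, no filter, a filter at a mean of 5, a replicate block and leaving out each library. R was version 4.3.3, and the fits were tested on simulated data. Intervals of read counts cover counting error only.

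The 10 genes and all companion lists were chosen with earlier results of these data known. Named were the 10 genes, of each companion list the genes called between genotypes or else the 2 with the highest mean, of each marker list the sum and the highest markers (called markers were added after their values were seen), Ripk3, Xist and 4 Y-linked genes, and the 5 genes of most similar profile. Cebpe was also added after its values were seen. Spi1 and Adgre1 were read under the listed symbols Sfpi1 and Emr1, and Ly6g, Prss57, Hbb-b2, Hba-a1 and Ahsp were not found among the names. Gene positions came from GENCODE M21 on GRCm38, promoters from RefSeq on GRCm38.p6, and near copies were transcripts of at least 90% identity over at least 200 bases.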

Additional observations from a re-analysis of the deposited data

Results flagged for a closer look

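The genotype effect of S100a8 differed between the populations, by 1.23 on the log2 scale (LSK minus LK), in the limma test of the difference. Its log2 fold change was 1.55 ± 0.17 (SE) in LSK and 0.32 ± 0.17 in LK, with both Ripk3-KO libraries above both WT libraries in each. The edgeR test did not call this difference, and it was lost when any of 7 of the 8 libraries was left out (adjusted p of 0.000415 to 0.325 over all other settings).

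The genotype effect of Gfi1 also differed, by 2.92 on the log2 scale, with an adjusted p of 0.0318 in limma (0.00223 to 0.442 over the other settings). Gfi1 was higher in both Ripk3-KO LSK libraries and lower in both Ripk3-KO LK libraries than in WT. The difference was not called by edgeR, with a pseudocount of 0.1 or without the filter, and it was lost when any of 6 of the 8 libraries was left out.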

How the results depend on the processing

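The direction of every genotype log2 fold change of the 10 genes was kept under every alternative that gave a value, except that of Mmp8 in LK, which ran from -0.37 (without WT LK replicate 2) to 1.23. In LK a filter at a mean of 5 left out Mmp8 and Mmp9, and Mmp9 was not tested without Ripk3-KO LK replicate 2. Ltf, Ngp, Camp, Lcn2, S100a8 and S100a9 were called in LSK in every fit, and Ltf, Ngp and Camp in LK. Of the 10 genes limma called 8 in LSK (6 to 8 with a library left out) and 6 in LK (3 to 6), 1 for the difference of the genotype effects (0 to 1), 2 in WT LK against WT LSK (1 to 3) and 0 in Ripk3-KO LK against Ripk3-KO LSK (0 to 1). Without the filter these counts were 3 in LK, 0 for the difference and 1 in the WT comparison. EdgeR gave 0 for the difference, a mean of at least 5 gave 4 in the WT comparison, and in the knockout comparison quantile normalization gave 4, median centring 1 and DESeq2 1.

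Over all genes limma called 363 in LSK (99 to 262 with a library left out), 66 in LK (13 to 101), 57 for the difference (17 to 90), 3769 in WT LK against WT LSK (1616 to 4179) and 3036 in the knockout comparison (1449 to 3165). Without the filter the counts were 198, 9, 3, 2448 and 1935. DESeq2 called 613, 177 and 155 for the first 3, edgeR called 209 in LSK, and quantile normalization gave 39 in LK and 1912 in the WT comparison. Median centring shifted the median log2 fold change of all genes by -0.17 in LSK, -0.17 for the difference, -0.26 in WT LK against WT LSK and -0.10 in the knockout comparison. It called 92 genes higher and 394 lower in LSK, against 150 and 213, 26 and 48 for the difference, against 29 and 28, and 1376 and 2185 in the WT comparison, against 2354 and 1415. Quantile normalization gave 972 and 940 in the WT comparison and 1173 and 1147 in the knockout comparison, against 1845 and 1191. The cause of these shifts was not tested.

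With a replicate block, limma called 317 genes in LSK, 64 in LK, 53 for the difference, 3568 in the WT comparison and 2875 in the knockout comparison, and 8, 6, 1, 2 and 0 of the 10 genes. Deviations of same-numbered libraries correlated between -0.152 and 0.023. This check, with 2 libraries per group, cannot show whether LSK and LK libraries came from the same mice. For Ripk3-KO LSK and LK, where the value was -0.152, a crossed replicate block, chosen after seeing the data, called 3155 genes. With 2 libraries per group, the reads behind Mmp9 in WT LK (3) and Cd177 in WT LSK (80, of which 79 are from 1 library) limit what can be said of these genes.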
